A study of Mus musculus with 10 samples.

Results

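The macrophage and leukocyte markers are 10 genes chosen by mouse symbol, Adgre1, Csf1r, Cd68, Lyz2, Mrc1, Itgam, Ptprc, Tyrobp, Fcer1g and Cd163, and mapped to their Ensembl IDs, out of 28987 gene IDs listed. They were followed in 10 RNA-seq libraries to gauge how much leukocyte RNA the cultures held, over 5 treatments and between the replicate numbers. The cells were grown to confluence from the collagenase and Dispase digest of inguinal fat of male C57BL/6 mice aged 6 to 8 weeks, with no sort or leukocyte depletion described. The labels call the source primary white adipocytes, while the treatment text speaks of adipose tissue. Each treatment lasted 24 h and has 2 libraries, numbered replicate 1 and replicate 2. The groups were bacterial lipopolysaccharide (LPS) at 100 ng/ml, norepinephrine at 1 mM, recombinant BAFF at 500 ng/ml and recombinant APRIL at 500 ng/ml, both cytokines of the TNF family, and saline.

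Fat holds resident macrophages that clear dead adipocytes and lipid, and they multiply and are joined by monocytes in obesity. Digests of fat pads carry such cells into culture along with preadipocytes. Macrophages depend on the cytokines CSF1 and IL-34 acting through the receptor Csf1r, sense microbes through pattern-recognition receptors, and pass signals from Fc receptors and from receptors such as TREM2 through the adaptors Fcer1g and Tyrobp, which carry tyrosine motifs that recruit the kinase SYK. LPS is the classical activator of macrophages through Toll-like receptor 4.

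Levels are in TPM, the relative abundance of a gene's transcripts within its library, scaled by transcript length so that genes can be compared. No read counts accompany them, so depth and counting error are unknown. Each library's listed genes summed to between 953553 and 964726 TPM, and 12845 to 13115 genes reached 1 TPM. Nothing in the labels ties the replicates to different mice or separate dishes, and p-values therefore cover only the spread among the sequenced samples, which may be technical. Those labelled APRIL were set apart by 2 measures. Across genes they correlated with the other 8 libraries at 0.850 to 0.886, against 0.948 to 0.991 among those 8, and their Y-linked genes summed to 0.489 to 0.775 TPM, against 93.8 to 123 TPM in the other 8, although all 10 libraries are labelled male. They are called the libraries labelled APRIL throughout, and the results that rest on them are given with and without them.

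Of the 10 markers, 8 passed the filter for testing of at least 1 TPM in at least 2 libraries. The pan-leukocyte phosphatase Ptprc (CD45) and the haemoglobin scavenger receptor Cd163 did not. The most abundant was Lyz2, lysozyme of macrophages and neutrophils, which alone made up 62.8 to 75.0% of the summed TPM of the 10 genes.

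Promoter sequences are shown for 4 of the markers, one abundant (Lyz2), one highest with LPS (Itgam), one low (Mrc1) and one listed close to 0 throughout (Ptprc), because the myeloid transcription factor PU.1 (gene Spi1) is known to act on macrophage promoters through purine-rich sites with a GGAA core. Each line gives the 150 bases before the start of the gene in RefSeq (GRCm38.p6), 5′ to 3′ on the gene's own strand. Capitals mark GAGGAA or GGAAGT on either strand, and these 2 strings can overlap because both hold GGAA. The windows of Cd68, Fcer1g and Cd163, not shown, held neither string in these 150 bases, nor did that of the second Ptprc start. The Lyz2 window lies at chr10:117282273-117282422 on the minus strand, Itgam at chr7:128062490-128062639 on the plus strand, Mrc1 at chr2:14229264-14229413 on the plus strand and Ptprc, the upstream of its 2 listed starts, at chr1:138175306-138175455 on the minus strand.
Lyz2: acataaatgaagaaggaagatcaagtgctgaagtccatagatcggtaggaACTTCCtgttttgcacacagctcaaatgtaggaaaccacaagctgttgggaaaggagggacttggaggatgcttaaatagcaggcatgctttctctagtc
Itgam: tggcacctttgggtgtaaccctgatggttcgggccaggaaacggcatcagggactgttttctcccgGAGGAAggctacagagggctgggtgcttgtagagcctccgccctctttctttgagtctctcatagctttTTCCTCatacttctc
Mrc1: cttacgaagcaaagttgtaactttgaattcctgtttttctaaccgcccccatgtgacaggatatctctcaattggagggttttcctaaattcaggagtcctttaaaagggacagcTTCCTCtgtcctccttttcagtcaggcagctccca
Ptprc: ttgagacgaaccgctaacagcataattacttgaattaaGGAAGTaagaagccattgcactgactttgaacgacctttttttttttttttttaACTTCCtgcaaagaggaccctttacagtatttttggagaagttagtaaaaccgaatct

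Of the 10 markers, 7 had a promoter in the RefSeq table, with 8 windows between them. Within 250 bases before the start, 5 of these 7 genes held at least one of the strings, in 6 of 8 windows. Over all 32851 promoters in the table, 36.7% held either string, 23.3% GAGGAA and 19.7% GGAAGT. The match is a description of letters, and the windows of Mrc1 and Ptprc, both with low listed TPM, held them as did that of the abundant Lyz2. Fcer1g and Cd163 held neither in this window.

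Among the secreted and lysosomal markers, Lyz2 (ENSMUSG00000069516, chromosome 10, 117277331 to 117282321 in GRCm38) had 1192 and 304 TPM with LPS, 1030.0 and 219 with norepinephrine, 841 and 359 with BAFF, 374 and 229 in the libraries labelled APRIL, and 1018 and 312 with saline, replicate 1 before replicate 2 here and below. Replicate 1 was the higher library of every group, and the ranges of all 5 groups overlapped. Its paralog Lyz1, with which it shares near-identical sequence that could divert reads, had 6.02 TPM at most. Cd68, a lysosomal membrane glycoprotein of phagocytes (ENSMUSG00000018774, chromosome 11, 69664213 to 69666153), had 128 and 35.0 TPM with LPS, 121 and 36.1 with norepinephrine, 102 and 61.5 with BAFF, 66.4 and 61.0 in the libraries labelled APRIL, and 101 and 56.5 with saline. The replicates of the libraries labelled APRIL were nearly level, while in the other groups replicate 1 stood well above replicate 2.

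Of the adaptors, Tyrobp (DAP12; ENSMUSG00000030579, chromosome 7, 30413760 to 30417585) had 133 and 33.8 TPM with LPS, 107 and 24.9 with norepinephrine, 101 and 61.6 with BAFF, 36.2 and 34.7 in the libraries labelled APRIL, and 116 and 52.3 with saline, a range that overlapped that of Cd68. Fcer1g, the common gamma chain of activating Fc receptors (ENSMUSG00000058715, chromosome 1, 171229572 to 171234365), had 111 and 25.6 TPM with LPS, 48.0 and 12.4 with norepinephrine, 41.1 and 23.4 with BAFF, 12.7 and 12.3 in the libraries labelled APRIL, and 48.1 and 19.8 with saline. For both adaptors the libraries labelled APRIL lay below both saline libraries, with replicates almost equal to each other.

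Among the surface receptors, Adgre1 (the F4/80 antigen, an adhesion G-protein-coupled receptor; ENSMUSG00000004730, chromosome 17, 57358691 to 57483527) had 68.8 and 21.6 TPM with LPS, 23.6 and 5.56 with norepinephrine, 24.8 and 12.97 with BAFF, 22.2 and 12.2 in the libraries labelled APRIL, and 29.8 and 9.23 with saline. Itgam (CD11b, the alpha chain of complement receptor CR3; ENSMUSG00000030786, chromosome 7, 128062640 to 128118491) had 62.9 and 20.7 TPM with LPS, 19.5 and 4.55 with norepinephrine, 13.6 and 10.9 with BAFF, 6.46 and 4.61 in the libraries labelled APRIL, and 16.0 and 4.79 with saline. Both LPS libraries lay above all 8 others for Itgam, and only for Itgam among the 10 markers. Csf1r, the CSF1 receptor (ENSMUSG00000024621, chromosome 18, 61100598 to 61132149), had 19.2 and 10.4 TPM with LPS, 16.3 and 6.49 with norepinephrine, 18.03 and 15.6 with BAFF, 13.6 and 8.84 in the libraries labelled APRIL, and 21.2 and 12.6 with saline, the narrowest spread of the 8 tested markers at 3.26-fold from lowest to highest library. Exons of Csf1r overlap those of Hmgxb3 on the opposite strand, which had 6.58 to 30.5 TPM, highest in the libraries labelled APRIL. The sources used here do not say whether quantification used strand, so reads shared by the 2 genes cannot be told apart. Exons of Itgam overlap those of the gene model Gm49368 on the same strand, for which no value is listed.

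Mrc1, the mannose receptor CD206 of resident macrophages (ENSMUSG00000026712, chromosome 2, 14229392 to 14332057), was low, with 10.1 and 1.02 TPM with LPS, 8.68 and 1.25 with norepinephrine, 6.21 and 2.35 with BAFF, 1.45 and 1.47 in the libraries labelled APRIL, and 6.65 and 2.10 with saline. Apart from the level libraries labelled APRIL, replicate 1 was several-fold the higher. Cd163 had 0.0194 to 0.997 TPM over the 10 libraries. Ptprc had at most 0.218 TPM and was listed at 0 in 6 of the 10 libraries. A listed 0 may be a failed estimate, which was not tested. Of 80 ribosomal protein genes 1, Rps12, was listed at 0 in every library. The low Ptprc values are given without reading an absence of leukocytes from them.

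**Figure D1:**
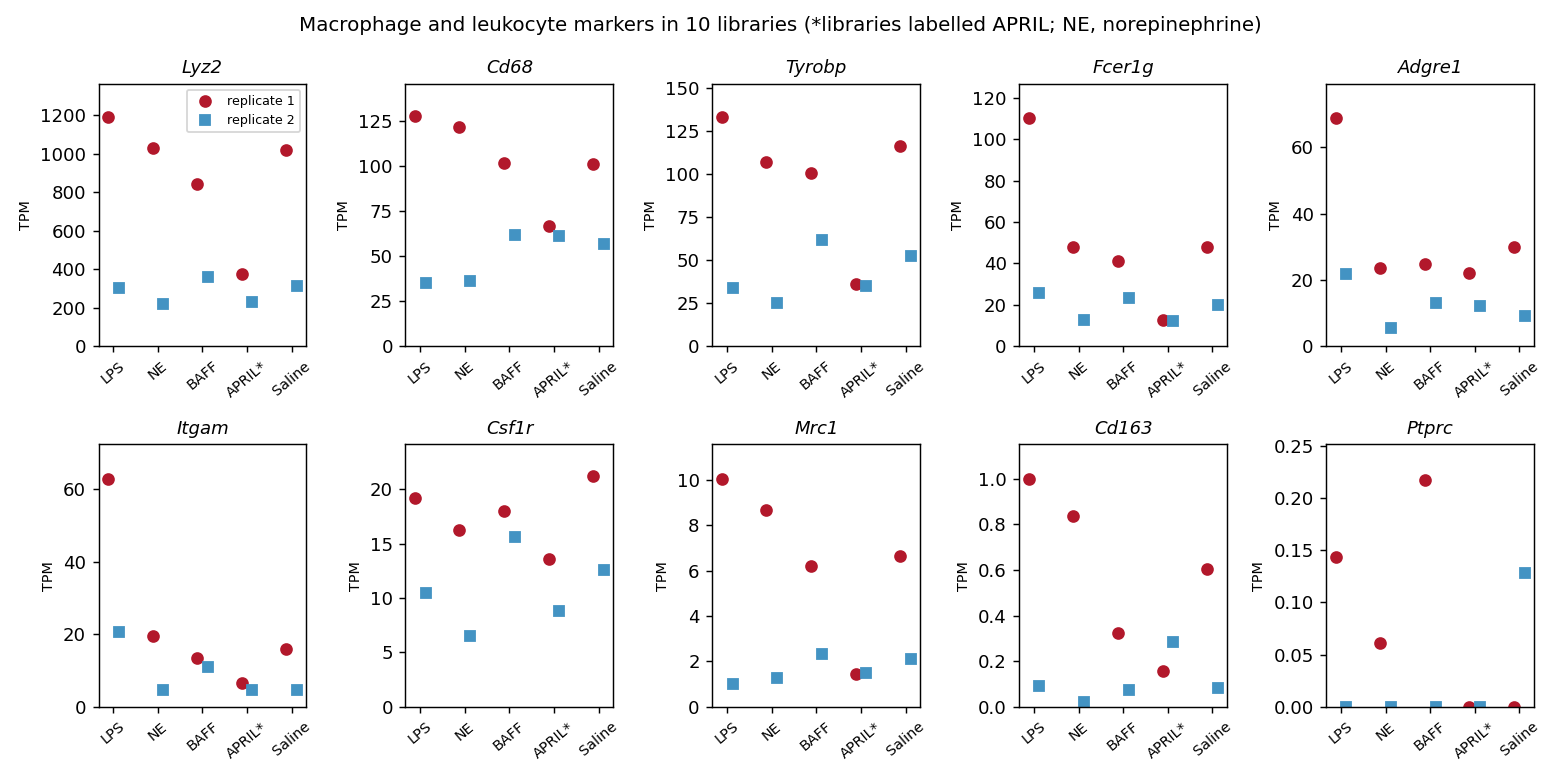
TPM of the 10 markers in each library on linear axes, 1 panel per gene, with LPS, norepinephrine (NE), BAFF, the libraries labelled APRIL and saline from left to right, circles for replicate 1 and squares for replicate 2. For the 9 genes other than Ptprc, replicate 1 lay above replicate 2 in the LPS, norepinephrine, BAFF and saline groups.

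In order of group means, neighbouring groups overlapped for each of the 8 tested markers, with 2 exceptions. The mean of Itgam was 41.8 ± 29.9 TPM with LPS and 12.2 ± 1.94 TPM with BAFF, the next in order (SD, n = 2 each), and these libraries did not overlap. The mean of Mrc1 was 4.28 ± 2.73 TPM with BAFF and 1.46 ± 0.0177 TPM in the libraries labelled APRIL, again without overlap. The summed TPM of the 10 markers was 1725 and 453 with LPS, 1375 and 309.9 with norepinephrine, 1148 and 548 with BAFF, 533 and 364 in the libraries labelled APRIL, and 1358 and 469.9 with saline. These sums are 0.0310 to 0.173% of 1000000 TPM. In bulk RNA fewer cells of a type and less RNA per cell cannot be told apart.

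Other leukocyte markers were read from the same libraries. Of 15 other macrophage genes, all reached 1 TPM in at least 1 library, and their sums were 618 and 156 TPM with LPS, 412 and 123 with norepinephrine, 385 and 206 with BAFF, 159 and 147 in the libraries labelled APRIL, and 416 and 179 with saline. The T and NK cell markers summed to 0.603 to 2.49 TPM, 1 of the 10 genes (Cd4) reached 1 TPM, and Cd3g and Gzma were listed at 0 throughout. The B cell markers summed to 0.632 to 7.94 TPM, mostly from Ighm at up to 5.73 TPM, with Ms4a1 (CD20) at 0. The mast cell markers summed to 1.12 to 4.72 TPM, nearly all from Kit. The neutrophil markers summed to 1.82 to 22.0 TPM, and Retnlg and S100a9 were listed at 0. As with Ptprc, the zeros in these lists may be failed estimates. Of the monocyte markers Ccr2, Ly6c2 and Chil3 never reached 1 TPM, and the list's sum of 32.1 to 236 TPM came from Plac8. The erythroid markers summed to 0.497 TPM at most. Of the MHC class II and dendritic cell genes, H2-Ab1 reached 55.3 TPM while its partner H2-Aa and the invariant chain Cd74 reached 0.677 and 1.68 TPM at most.

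The markers followed the replicate number in most groups. In each of the LPS, norepinephrine, BAFF and saline groups all 8 tested markers were higher in replicate 1. The median replicate 1 to replicate 2 ratio of the 8 markers was 3.78 with LPS (range 1.84 to 9.84), 4.26 with norepinephrine (2.51 to 6.93), 1.70 with BAFF (1.15 to 2.64) and 2.80 with saline (1.68 to 3.34). In the libraries labelled APRIL it was 1.25 (0.983 to 1.82), with 7 of 8 markers higher in replicate 1 and Mrc1 level. The summed TPM gave ratios of 3.81 with LPS, 4.44 with norepinephrine, 2.10 with BAFF, 1.46 in the libraries labelled APRIL and 2.89 with saline.

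**Figure D2:**
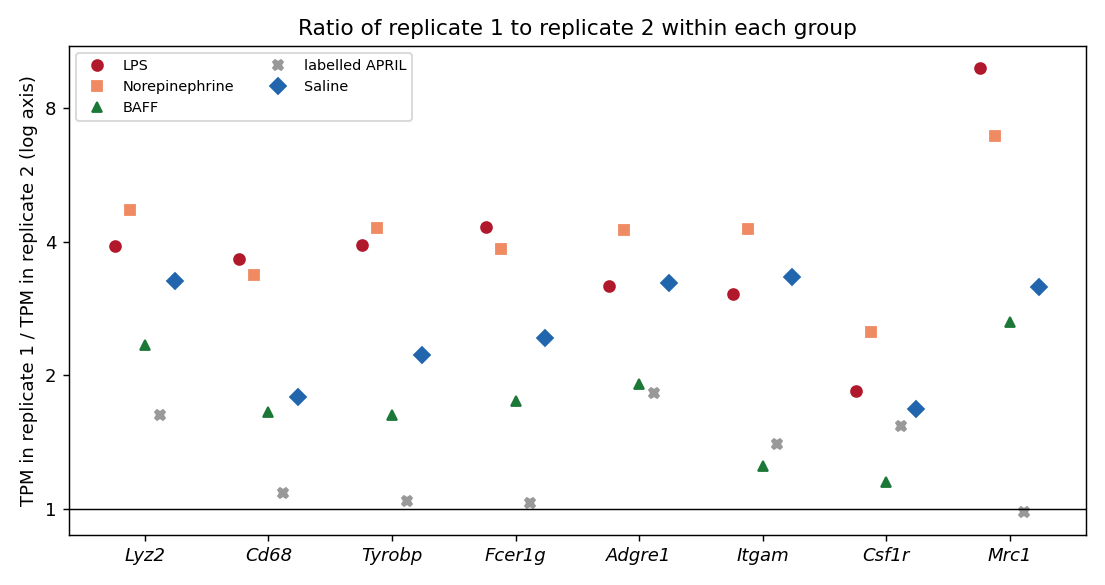
Ratio of TPM in replicate 1 to TPM in replicate 2 for the 8 tested markers, 1 symbol per group, on a log axis with a line at 1. The ratios of the LPS, norepinephrine, BAFF and saline groups all lay above 1, and those of the libraries labelled APRIL ran from 0.983 to 1.82.

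The replicate difference was tested with limma across all tested genes, as a replicate term beside the group means. With all 10 libraries it called 0 of 14166 genes (0.00%) at an adjusted p under 0.05, and none of the 8 markers (adjusted p = 0.113 to 0.215). At an unadjusted p under 0.05 it found 1762 genes, 12.4% of those tested, and all 8 markers. Without the libraries labelled APRIL, 343 of 13730 genes passed (2.50%), of which 238 (1.73%) were higher and 105 (0.765%) lower in replicate 1. Of the 8 markers, 6 passed, all higher in replicate 1. Fold changes here and below are differences of log2(TPM + 1) ± SE, which understate the change of low genes. Lyz2 was higher by 1.78 ± 0.16 (limma adjusted p = 0.0137), Adgre1 by 1.50 ± 0.16 (0.0203), Mrc1 by 1.74 ± 0.24 (0.0307), Fcer1g by 1.49 ± 0.21 (0.0330), Tyrobp by 1.46 ± 0.24 (0.0440) and Cd68 by 1.28 ± 0.21 (0.0477). The values for Itgam, 1.32 ± 0.26 (adjusted p = 0.0637), and Csf1r, 0.73 ± 0.16 (adjusted p = 0.0813), did not pass. The median of the 8 markers was 1.47 against -0.02 over all tested genes.

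Calls were lost when single libraries were left out. When 1 more library was left out, the markers called numbered 0 without either LPS library and without either saline library, 1 (Lyz2) without either norepinephrine library, and 4 (Adgre1, Lyz2, Itgam and Fcer1g) without either BAFF library. All 8 fold changes stayed positive in each of these 8 fits. That had to follow, because all 8 markers were higher in replicate 1 of each of the 4 groups. Leaving out either library of a group also gave the same fold change. Whether the replicate difference was itself different in the libraries labelled APRIL was tested by an interaction term. It called 1388 of 14166 genes (9.80%) and none of the 8 markers (adjusted p = 0.102 to 0.801). Lyz2, Mrc1, Tyrobp and Fcer1g had an unadjusted p under 0.05, as did 4044 of the 14166 genes. The largest gap was in Mrc1, 1.74 in the 4 groups and -0.01 in the libraries labelled APRIL, a difference of 1.76 ± 0.54.

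In the 8 libraries 1.73% of all tested genes were higher in replicate 1 and 0.765% lower. Other macrophage genes moved the same way as the markers between these replicates. Of 14 tested, 8 were higher in replicate 1 and none lower, with a median of 1.29. They included the complement genes C1qa (2.19 ± 0.19, limma adjusted p = 0.0137), C1qb (1.65 ± 0.19, 0.0244) and C1qc (1.81 ± 0.19, 0.0187), the pore-forming Mpeg1 (1.46 ± 0.14, 0.0160) and the protease Ctss (1.50 ± 0.23, 0.0389). Of 4 tested markers of resident adipose macrophages, Folr2, a folate receptor (1.93 ± 0.16, 0.0123), and F13a1, a coagulation factor subunit (2.33 ± 0.21, 0.0137), were higher. Of 5 tested markers of lipid-associated macrophages, Trem2, Gpnmb and Mmp12 were higher, by 0.89 to 1.46. The most abundant genes of these lists had smaller differences. They are given from the fit of all 10 libraries, in which no gene passed. There Cbr2 differed by 0.20 ± 0.14 (limma adjusted p = 0.610) and Spp1 by 0.04 ± 0.22 (0.960). In the same fit Folr2 differed by 1.48 ± 0.37 and Trem2 by 1.15 ± 0.29. Spp1 reached 1445 TPM. The lipid-associated sum had replicate 1 to replicate 2 ratios of 0.763 with LPS, 0.899 with norepinephrine, 1.35 with BAFF and 1.56 with saline. Ratios of the resident macrophage sum were 1.23 with LPS, 1.59 with norepinephrine, 1.40 with BAFF and 1.45 with saline. The ligands, partners and signalling genes of the markers were less uniform. Their list shares Trem2, Fcgr1 and Fcgr3 with the lists above, so the counts overlap. Of 21 tested, 5 were higher and none lower, among them Itgb2, which encodes the beta chain that pairs with Itgam (1.36 ± 0.22, 0.0444), Trem2, which signals through Tyrobp, Fcgr3, which signals through Fcer1g (1.60 ± 0.25, 0.0399), and the signalling gene Vav1. Of 11 genes known to respond to LPS in macrophages, 1 was higher (Ccl3). The ligand Csf1 differed by -0.18 ± 0.12 and did not pass (adjusted p = 0.457).

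Markers of the other cells of the culture had medians nearer to 0. The adipocyte markers had a median of -0.18, with 0 of 10 higher and 1 (Cidec, -0.43 ± 0.06, adjusted p = 0.0318) lower. Their sums were 5457 and 6047 TPM with LPS, 15537.5 and 15938 with norepinephrine, 7991 and 9928 with BAFF, and 8276 and 9525 with saline. The fibroblast and preadipocyte markers had a median of 0.26, with Dcn and Lum higher among 6. None of 4 endothelial or 5 smooth muscle and pericyte markers passed, nor did Krt19, which made up most of the mesothelial and epithelial sum of 2.79 to 22.4 TPM. Among the 10 genes of smallest p, 6 are genes of skeletal muscle, chosen here after their values were seen, and all were lower in replicate 1. The oxygen store Mb had 0.207 and 10.4 TPM with LPS, 2.72 and 21.9 with norepinephrine, 0.288 and 9.98 with BAFF, 13.4 and 2.36 in the libraries labelled APRIL, and 0.304 and 12.9 with saline, and its difference over the 8 libraries was -3.09 ± 0.14 (limma adjusted p = 0.00420). In the libraries labelled APRIL the order was the other way round. Their part in the marker result was not tested.

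**Figure D3:**
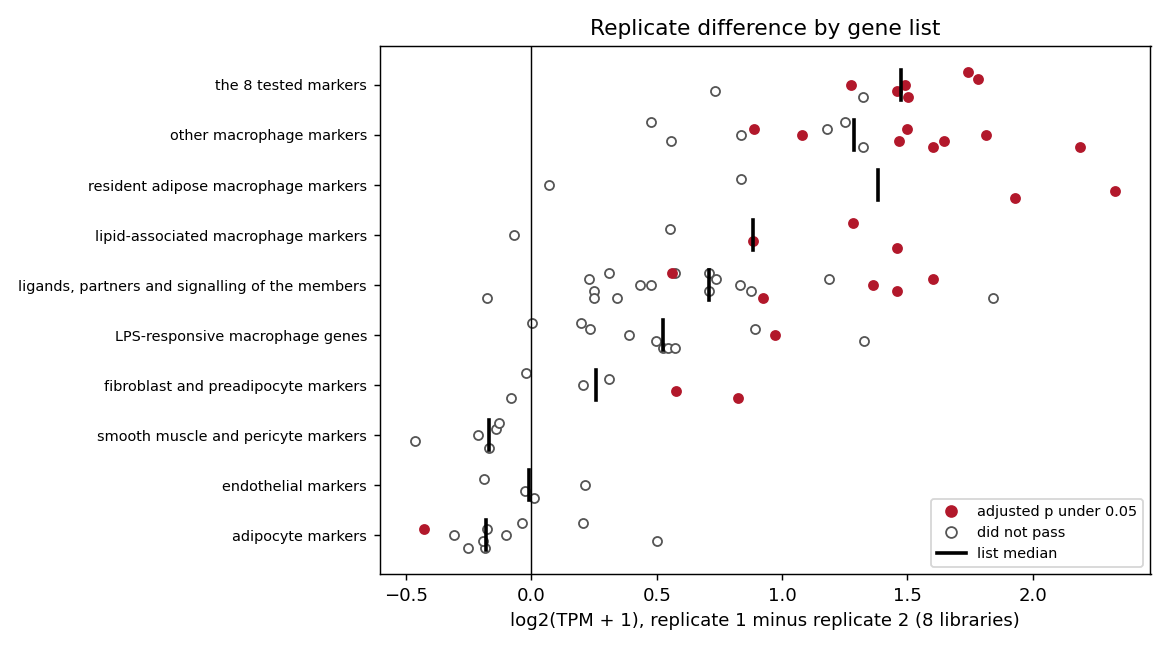
Difference of log2(TPM + 1), replicate 1 minus replicate 2, in the 8 libraries of the LPS, norepinephrine, BAFF and saline groups, 1 point per tested gene, filled where the adjusted p was under 0.05, with a bar at the median of each list. The 8 tested markers had a median of 1.47 and the other macrophage markers 1.29, while the adipocyte markers had -0.18.

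Because the markers differed this much between replicate numbers, the treatment comparisons were read with and without a replicate block. Deviations from group means correlated at 0.272 to 0.479 between libraries of the same number in all 6 pairs of the LPS, norepinephrine, BAFF and saline groups. The numbers were therefore treated as pairing these groups, although no label states it. The same values then entered the blocked fits, so the correlations are no independent check of the block. For the 4 pairs with the libraries labelled APRIL they ran from -0.11 to 0.03.

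With LPS, 2 surface receptors stood above saline once the replicate number was accounted for, while the abundant lysosomal and adaptor markers did not pass. Without the block, LPS called 539 of 14166 genes (3.80%) and none of the 8 markers. The smallest adjusted p was that of Itgam, with a log2 fold change of 1.91 ± 0.75 (limma adjusted p = 0.259, unadjusted p = 0.0361). With the block and all 10 libraries 683 genes (4.82%) passed, and of the 8 markers only Itgam (adjusted p = 0.0498), with Adgre1 at an adjusted p of 0.0692. With the block and without the libraries labelled APRIL, 1705 of 13730 genes passed (12.4%), 7.40% higher and 5.02% lower, and 2 of the 8 markers, both higher. Itgam rose by 1.91 ± 0.36 (limma adjusted p = 0.0247) and Adgre1 by 1.16 ± 0.23 (adjusted p = 0.0280). Both calls were lost when any of the 4 LPS or saline libraries was left out of that fit (adjusted p = 0.0859 to 0.142 for Itgam and 0.0971 to 0.151 for Adgre1).

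Fcer1g had a log2 fold change of 0.77 ± 0.30 with LPS and did not pass (adjusted p = 0.166). The other 5 tested markers lay between -0.21 ± 0.34 (Tyrobp) and 0.10 ± 0.22 (Lyz2), with adjusted p of 0.637 to 0.955. The median of the 8 was 0.03, against -0.02 over all tested genes. Read against the 12.4% of all genes called, 2 of 8 is no result about the markers as a set.

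Set against Tyrobp within the same library, the markers kept different ratios. These ratios were chosen after their values were seen and carry no test. Fcer1g had 83.0 and 75.9 TPM per 100 TPM of Tyrobp with LPS, 45.0 and 50.0 with norepinephrine, 40.8 and 38.0 with BAFF, 35.1 and 35.4 in the libraries labelled APRIL, and 41.4 and 37.8 with saline. Both LPS libraries were above the other 8, and the replicates of each group lay close to each other although the TPM behind them differed by up to 4.31-fold. Itgam had 47.3 and 61.2 per 100 with LPS and 9.15 to 18.3 in the other 8 libraries. Adgre1 had 51.7 and 64.0 per 100 with LPS, 22.1 and 22.4 with norepinephrine, 24.7 and 21.0 with BAFF, 61.4 and 35.1 in the libraries labelled APRIL, and 25.7 and 17.6 with saline, so that the libraries labelled APRIL overlapped those with LPS. Lyz2 had 895 and 901 per 100 with LPS, inside the 583 to 1033 of the other 8, and Csf1r 14.4 and 30.9, against 15.3 to 37.6.

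**Figure D4:**
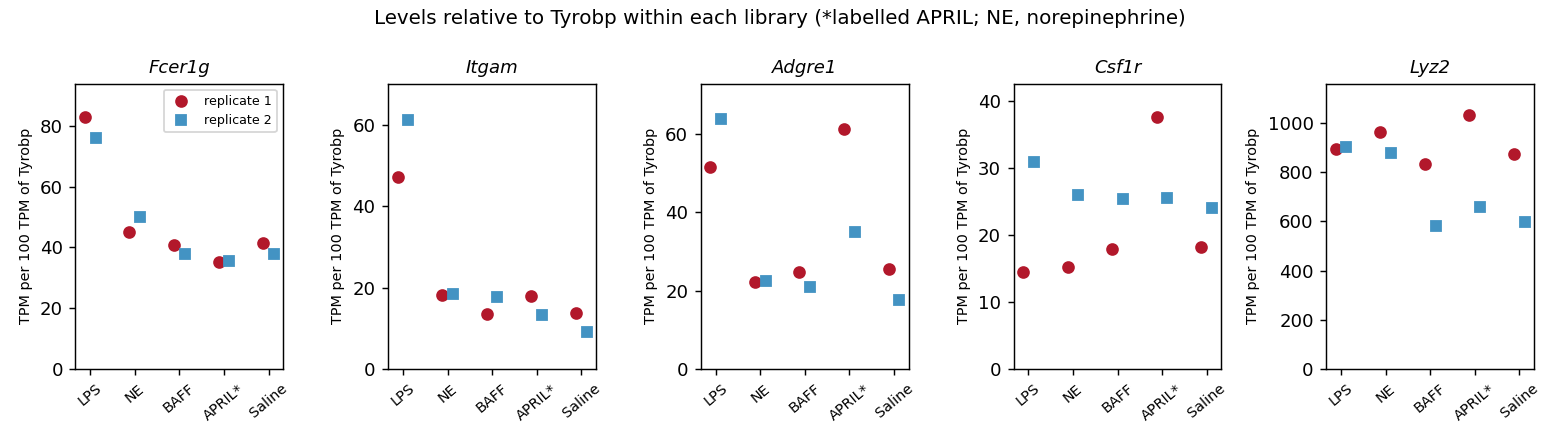
TPM of Fcer1g, Itgam, Adgre1, Csf1r and Lyz2 per 100 TPM of Tyrobp in the same library, on linear axes, with LPS, norepinephrine (NE), BAFF, the libraries labelled APRIL and saline from left to right. For Fcer1g and Itgam both LPS libraries lay above the other 8, for Adgre1 they overlapped the libraries labelled APRIL, and for Lyz2 they lay within the range of the others.

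In the same blocked fit of 8 libraries, 7.40% of all tested genes were higher with LPS and 5.02% lower. Other macrophage genes split in direction in that fit. Of 14 tested, 2 were higher, the scavenger receptor Marco (3.08 ± 0.44, limma adjusted p = 0.0101) and the LPS co-receptor Cd14 (1.78 ± 0.18, 0.00376), and 3 were lower, C1qa (-1.23 ± 0.27, 0.0393), C1qb (-1.16 ± 0.27, 0.0450) and C1qc (-1.16 ± 0.27, 0.0463). Marco had 29.9 and 4.93 TPM with LPS, against 1.25 and 0.140 TPM with saline. C1qa had 26.9 and 2.75 TPM with LPS, against 47.8 and 10.9 TPM with saline. Among the lipid-associated markers Mmp12, an elastase, rose (1.86 ± 0.16, 0.00234), while Trem2 (-1.30 ± 0.28, 0.0366) and Gpnmb (-0.74 ± 0.17, 0.0471) fell. Of 11 tested genes known to respond to LPS in macrophages, 10 were higher, among them Il1b (6.07 ± 0.36, 0.000761), which had 131 and 45.8 TPM with LPS, against 0.370 and 0 TPM with saline.

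Of the ligands, partners and signalling genes, 5 of 21 rose with LPS and 1 fell. Those that rose were the Csf1r ligand Csf1 (0.95 ± 0.18, limma adjusted p = 0.0229), 2 ligands of the Itgam integrin, Icam1 (1.98 ± 0.13, 0.000854) and complement C3 (2.67 ± 0.10, 0.000295), the haemoglobin-binding Hp (0.90 ± 0.11, 0.00595) and the glucan receptor Clec7a (2.22 ± 0.30, 0.00867). Trem2, already counted among the lipid-associated markers, was the one that fell. Itgb2, the partner chain of Itgam, had 0.39 ± 0.31 (adjusted p = 0.479). These ligands are also made by cells other than macrophages.

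Markers of other cells moved with LPS too. The neutrophil list summed to 22.0 and 15.6 TPM with LPS, against 2.75 and 1.82 TPM with saline, nearly all from S100a8 (3.33 ± 0.28, limma adjusted p = 0.00219), with S100a9 and Retnlg listed at 0. Those zeros may be failed estimates. Of 6 tested fibroblast and preadipocyte markers 4 were higher, and of 10 adipocyte markers 8 were lower. The adipocyte sums were 5457 and 6047 TPM with LPS, against 8276 and 9525 TPM with saline. Their part in the marker result was not tested.

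**Figure D5:**
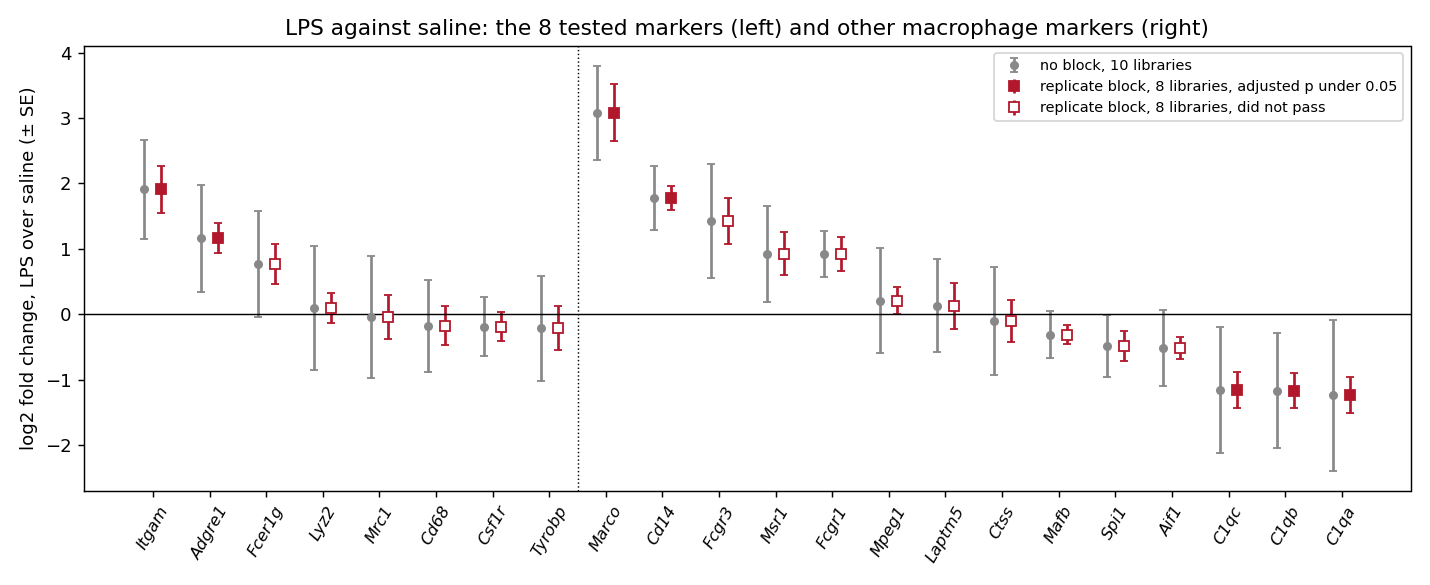
Log2 fold change of LPS over saline (± SE) for the 8 tested markers, left of the dotted line, and 14 other macrophage markers, right of it, without a block in 10 libraries (grey) and with a replicate block in the 8 libraries not labelled APRIL (red, filled where the adjusted p was under 0.05). Itgam and Adgre1 passed at 1.91 and 1.16, and Marco, Cd14 and the 3 C1q genes passed in opposite directions.

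Norepinephrine called 99 of 14166 genes (0.699%) and none of the 8 markers without the block. With the block and without the libraries labelled APRIL it called 1740 of 13730 (12.7%) and again none of the 8. In that fit the nearest were Csf1r, at -0.61 ± 0.22 (limma adjusted p = 0.128), Adgre1, at -0.48 ± 0.23 (adjusted p = 0.214), and Tyrobp, at -0.58 ± 0.34 (adjusted p = 0.291). Of the 8 markers 7 had a fold change below 0, with a median of -0.28 against 0.04 over all genes. At an unadjusted p under 0.05, 1 marker passed in that fit, as did 31.5% of all tested genes. Without the block none of the markers and 17.6% of all tested genes did.

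BAFF called 2 of 14166 genes (0.0141%) and none of the 8 markers, also with the block and without the libraries labelled APRIL (2 of 13730, 0.0146%). In the first of these fits the 2 were Gm7336 and an ID without a symbol. Their values were identical (-3.51 ± 0.23, limma adjusted p = 0.00359), so they may not be separate signals. No marker reached an unadjusted p under 0.05 in either fit, against 2.84% of all tested genes in the first and 7.48% in the second. The largest fold change was 0.41 ± 0.36 in Itgam (limma adjusted p = 0.685 with the block), and the other 7 lay between -0.04 ± 0.22 (Lyz2) and 0.10 ± 0.23 (Adgre1). The marker median was 0.02 against 0.11 over all genes, and with median-ratio scaling of the libraries 6 of the 8 fold changes changed sign, so no direction is given.

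The libraries labelled APRIL differed from saline in 8236 of 14166 genes (58.1%) and in none of the 8 markers without a block. All 8 fold changes were below 0, with a median of -0.78 against 0.08 over all genes. None reached an unadjusted p under 0.05 in that fit, while 62.7% of all tested genes did. The lowest were Fcer1g, at -1.24 ± 0.80 (limma adjusted p = 0.220), and Tyrobp, at -1.12 ± 0.80 (adjusted p = 0.265). With a replicate block, although the numbers did not pair these libraries with the others, 60.2% of genes passed and 2 of the 8 markers were called lower, Lyz2 at -0.94 ± 0.34 (limma adjusted p = 0.0467) and Fcer1g at -1.24 ± 0.45 (adjusted p = 0.0492). The same libraries stood apart in sex-linked and other transcripts, and treatment and source cannot be told apart in them.

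Across libraries the 8 tested markers moved together. The 28 pairs had a median Pearson r of 0.837 (0.580 to 0.965) over the 10 libraries and 0.870 (0.599 to 0.989) over the 8 without those labelled APRIL, on log2(TPM + 1), as a description of libraries that share replicate number and treatment. The genes outside the markers whose pattern was most like the mean of the 8 over 10 libraries included Adam8 (r = 0.954), Ms4a6d, Clec4d, Cd84, Pirb, Ncf4 and Cd37, the last at r = 0.939. Over the 8 libraries they were Itgb2 (r = 0.990), Cd52, Laptm5, Adam8, Hk3, Ncf1, Pstpip1 and Pirb, the last at r = 0.968. Ncf1 and Ncf4 encode subunits of the phagocyte NADPH oxidase. Adam8, a membrane metalloprotease in both sets, had 157 and 28.2 TPM with LPS, 65.9 and 20.7 with norepinephrine, 71.9 and 34.6 with BAFF, 47.2 and 31.3 in the libraries labelled APRIL, and 75.0 and 27.8 with saline. It was higher in replicate 1 of every group, as were 7 of the 8 tested markers.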

How the data were processed

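Per the file headers, the values deposited by the authors are TPM, 1 table per library. Per the submitters' processing notes kallisto and mm10 were used; versions, annotation release, strand setting and summing to genes are not given in the sources used here. Symbols and coordinates came from GENCODE M21 (27475 of 28987 IDs with a symbol). The test was limma (version 3.58.1, run under R 4.3.3) on log2(TPM + 1) for the 14166 genes that reached 1 TPM in 2 or more libraries. It estimated 5 group means from all 10 libraries, let the variance follow a trend with mean level, and adjusted p by Benjamini-Hochberg over the tested genes, with a threshold of 0.05. The fit was tested on simulated data. The replicate comparison added a replicate term. That the numbers pair the LPS, norepinephrine, BAFF and saline groups was decided from the correlations of deviations, all above 0.1. Tables and figures used Python 3.11.15 and matplotlib 3.10.9. Named genes were the 10 markers, from 17 other lists any gene past 0.05 and up to 4 of smallest p, and the 8 genes most like the markers with a mean of at least 5 TPM. Not every gene so selected is reported here. The markers and lists were chosen with earlier results of these data known. Alternatives were a pseudocount of 0.1, no filter, the block, median-ratio scaling, the libraries labelled APRIL left out and each library left out. The block without the libraries labelled APRIL, and its leave-one-out fits, were added after the data were seen.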

Additional observations from a re-analysis of the deposited data

How the results depend on the processing

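Depth is unknown and each group has 2 libraries, so replicate spread sets what can be seen. Of 608 recomputed marker fold changes, for results that were all uncalled with 10 libraries and no block, 536 kept their direction and side of the threshold, 23 passed it newly and 49 changed sign. The genes called with LPS numbered 946 without the libraries labelled APRIL and 1705 with the replicate block as well, and the markers called 1 with the block and 2 with both. With norepinephrine the genes called numbered 43 at a pseudocount of 0.1, 55 without the filter, 167 with the block, 854 without the libraries labelled APRIL and 1740 with both. With BAFF they numbered 0 at a pseudocount of 0.1, where 2 was the count in the report, and 12 without the filter. In the libraries labelled APRIL, which the numbers did not pair, the block called 2 markers (Lyz2 and Fcer1g, both lower). The replicate comparison without the libraries labelled APRIL called 343 genes and 6 markers.

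Median-ratio scaling turned BAFF fold changes to -0.021 for Adgre1, -0.083 for Csf1r, -0.061 for Cd68, -0.087 for Mrc1, -0.11 for Tyrobp and -0.12 for Fcer1g; the cause was not tested. Leaving out 1 library at a time, the genes called ranged from 112 to 943 with LPS, 0 to 849 with norepinephrine, 2 to 4 with BAFF, 6391 to 8166 in the libraries labelled APRIL and 0 to 343 for the replicate number, whose markers called ranged from 0 to 6. Within the 8 other libraries, where 6 markers were called for the replicate number and 2 for LPS with the block, the markers called ranged from 0 to 4 and from 0 to 2.

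Marker fold changes that turned sign with 1 library left out ranged, with LPS, from -0.60 to 0.22 (Csf1r), -1.09 to 0.75 (Cd68), -0.89 to 1.08 (Lyz2), -1.27 to 1.18 (Mrc1), -1.18 to 0.76 (Tyrobp) and -0.26 to 1.80 (Fcer1g). With norepinephrine the ranges were -1.44 to 0.47 (Adgre1), -1.05 to 0.67 (Cd68), -1.36 to 0.87 (Lyz2), -1.11 to 0.99 (Mrc1), -0.83 to 1.05 (Itgam), -1.61 to 0.45 (Tyrobp) and -1.25 to 0.62 (Fcer1g). With BAFF they were -0.70 to 0.89 (Adgre1), -0.32 to 0.39 (Csf1r), -0.35 to 0.48 (Cd68), -0.89 to 0.81 (Lyz2), -0.64 to 0.66 (Mrc1), -0.36 to 1.19 (Itgam), -0.55 to 0.58 (Tyrobp) and -0.62 to 0.62 (Fcer1g). In the libraries labelled APRIL they were -0.82 to 0.77 (Adgre1), -0.66 to 0.17 (Cd68) and -1.39 to 0.16 (Itgam). A lone library of a group is assumed to vary like the other groups.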
